A study of Mus musculus with 16 samples.

Results

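The 9 genes described here are nuclear, and their protein products make, process, stabilise or degrade mitochondrial RNA. They were measured in mouse testis RNA that had been separated with J2, a monoclonal antibody to double-stranded RNA. They were chosen by name: Polrmt, Tfam and Tfb2m for synthesis, Elac2 for processing, Lrpprc and Slirp for stability, and Pnpt1, Supv3l1 and Rexo2 for decay. All 9 were found among the 35920 genes of the deposited table. RNA bound by the antibody (called J2 below) and RNA left unbound (flow-through) were sequenced in 16 libraries. Dicer knock-out testis at postnatal day 18 (P18; genotype Dcr-/-, strain C57BL/6 x 129S4/SvJae) gave 3 libraries of each fraction. Adult testis (wild type, strain stated as unknown) gave 2 of each, and wild-type P18 testis of the same strain as the knock-out gave 3 of each. Both fractions went through the same J2 procedure, and the labels call the flow-through RNA depleted of rRNA and dsRNA. The labels do not say which promoter or Cre made the deletion, which cells carry it, or whether replicates came from separate animals, so p-values cover only the spread among these libraries, part or all of which could be technical. Age and strain cannot be told apart in the adult comparison.

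Mitochondrial DNA is transcribed from both strands by the RNA polymerase POLRMT together with TFAM, which packages and bends the DNA, and TFB2M, which helps to open the promoter. The long transcripts of the opposite strands are complementary and can pair into double-stranded RNA, which the exoribonuclease PNPT1 (PNPase) and the helicase SUPV3L1 (SUV3) degrade, while REXO2 removes the short fragments. ELAC2 cuts tRNAs at their 3' ends out of the long transcripts, and LRPPRC with SLIRP keeps the resulting mRNAs stable. In mouse testis, Tfam also gives a transcript with another first exon, and its protein product lies in the nucleus of spermatids. The deposited values sum all transcripts of a gene, so the Tfam forms were not separated here.

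The promoter windows of Tfam, Elac2 and Polrmt are shown because the comparisons below turn mainly on these 3 genes. Each window runs from 250 bases before to 50 bases after an annotated start (RefSeq, GRCm38.p6), and all 9 genes had one. Tfam lies on the minus strand with its window at chr10:71237995-71238294, Elac2 on the plus strand at chr11:64978785-64979084, and Polrmt on the minus strand at chr10:79746532-79746831. Capitals mark matches, on either strand, to GCGCNTGCGC (the motif of nuclear respiratory factor 1) or to CCGGAAG (the motif of ETS factors such as GABP, read as CTTCCGG on the other strand).
Tfam: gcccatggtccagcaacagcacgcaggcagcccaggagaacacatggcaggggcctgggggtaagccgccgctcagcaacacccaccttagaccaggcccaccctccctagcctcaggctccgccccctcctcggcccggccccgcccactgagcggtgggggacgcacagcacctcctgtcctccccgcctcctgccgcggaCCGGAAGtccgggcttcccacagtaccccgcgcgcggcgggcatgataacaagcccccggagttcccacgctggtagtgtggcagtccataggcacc
Elac2: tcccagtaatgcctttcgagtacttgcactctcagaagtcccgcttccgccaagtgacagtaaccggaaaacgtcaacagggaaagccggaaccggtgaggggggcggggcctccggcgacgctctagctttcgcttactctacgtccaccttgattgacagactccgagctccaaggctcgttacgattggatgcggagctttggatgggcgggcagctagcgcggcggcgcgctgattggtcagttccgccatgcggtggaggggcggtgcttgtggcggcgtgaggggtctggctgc
Polrmt: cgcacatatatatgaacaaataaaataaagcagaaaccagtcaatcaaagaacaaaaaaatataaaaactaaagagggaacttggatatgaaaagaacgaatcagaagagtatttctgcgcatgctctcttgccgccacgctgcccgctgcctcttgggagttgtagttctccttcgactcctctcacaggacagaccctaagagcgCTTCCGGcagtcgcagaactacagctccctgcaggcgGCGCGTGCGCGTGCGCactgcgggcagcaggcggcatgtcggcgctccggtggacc
Tfam held 1 ETS match, Polrmt held 1 ETS match and 2 NRF1 matches that overlap each other, and Elac2 held neither. Over the 9 genes, NRF1 matches stood in 2 windows (Polrmt and Rexo2), against 4.60% of 32851 windows of the same length. ETS matches stood in 3 (Slirp, Polrmt and Tfam), against 8.86% of all windows. The windows of Tfam, Supv3l1 and Pnpt1 lie inside the annotated spans of their genes, so they are not at the outermost annotated start. The starts used for Polrmt and Tfb2m also lie a short way inside the spans of these genes. Which Tfam form starts at its window was not determined. A match is a run of letters and not a measured binding site.

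Values below are the authors' normalized counts, in which 1 sequenced read was worth about 0.116 to 0.516 units in J2 libraries and 2.005 to 8.31 units in flow-through libraries. Library totals corresponded to about 1.23 to 4.54 M reads in J2 and 0.998 to 5.87 M reads in flow-through. The 9 genes were thinly covered: together they took about 121 to 1137 reads per J2 library and 2.64 to 45.2 reads per flow-through library. With a looser tolerance, the reads of adult J2 replicate 2 and knock-out J2 replicate 3 come out at about 569 in place of 1137 and about 133 in place of 266. Of the 72 gene-by-library values in each fraction, 52 were above 0 in J2 and 52 in flow-through, and 19 of the J2 values and 23 of the flow-through values reached 10. A flow-through value of 10 stood for about 1.20 to 4.99 reads, so a gene listed at 0 there may have gone unsampled. Adult J2 replicate 2 stood apart, with 22683 genes above 0 against 6874 to 11591 in the other J2 libraries. The targeted gene, Dicer1, did not exceed 3.39 in knock-out J2, 11.3 in wild-type J2, 8.33 in knock-out flow-through or 12.4 in wild-type flow-through, and was listed at 0 in 7 of 16 libraries, too low to check the labels. All 7 spermatocyte markers were above 0 in each of the 6 groups, and all 8 spermatid markers in both adult groups.

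**Figure D1:**
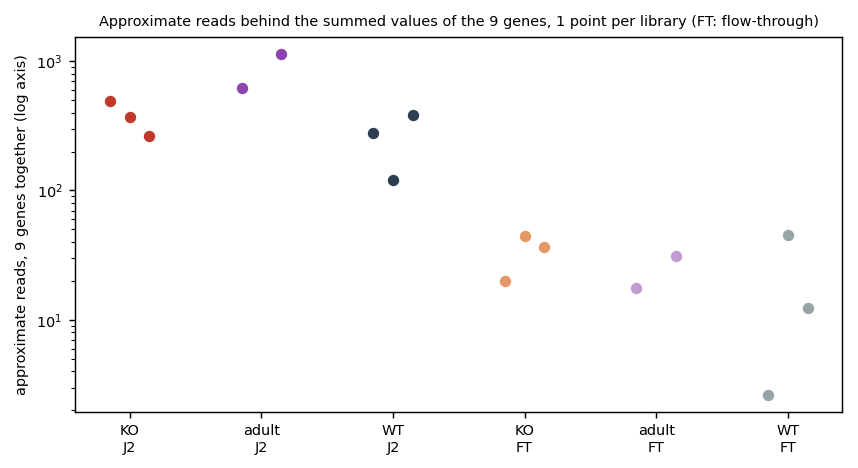
Approximate number of reads behind the 9 genes together (log axis), 1 point per library, by genotype or age and fraction. J2 libraries lie between 121 and 1137 reads and flow-through libraries between 2.64 and 45.2.

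**Figure D2:**
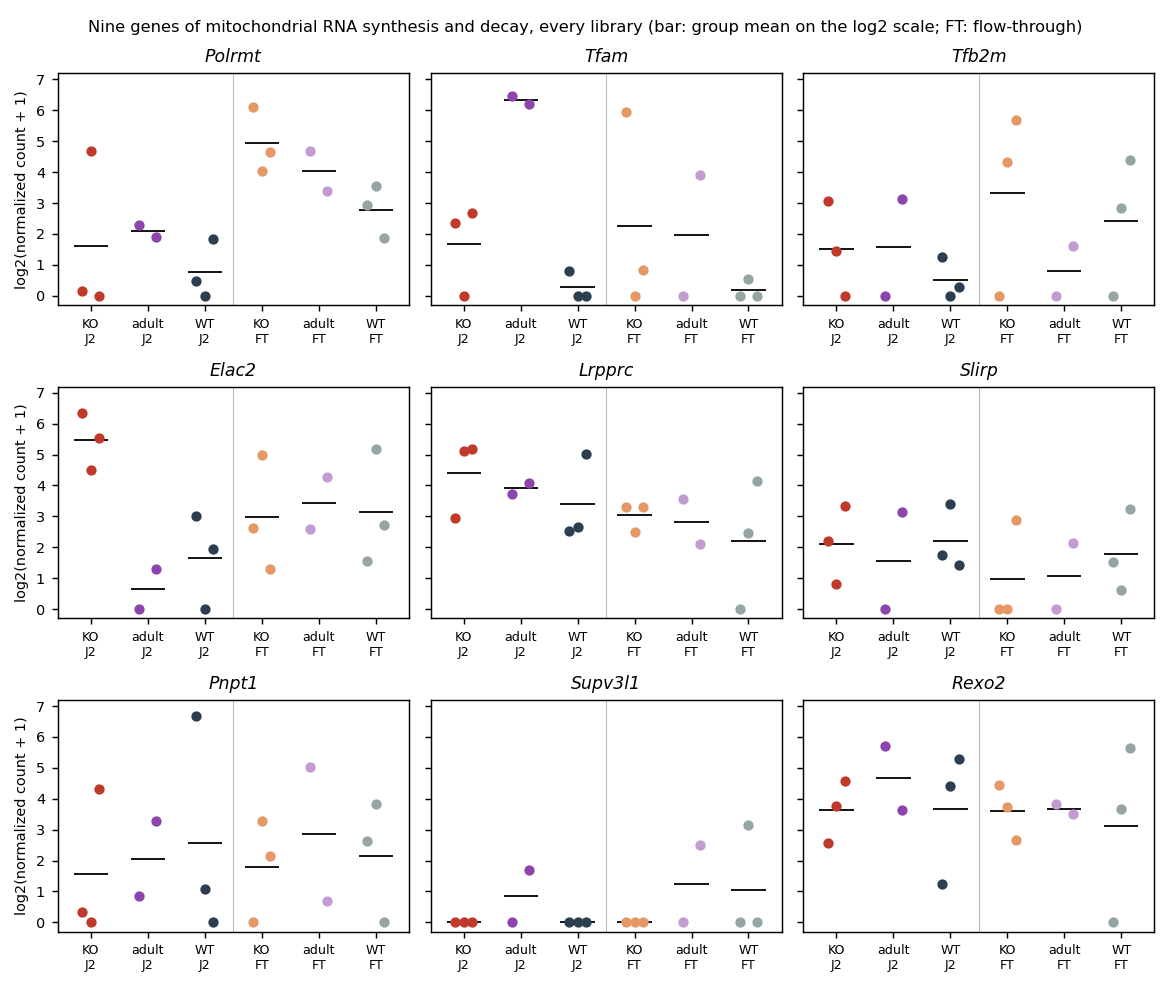
Normalized counts of each of the 9 genes as log2(value + 1), 1 point per library, with the J2 groups left of the line and the flow-through groups right of it; bars are group means on that scale. The adult J2 points of Tfam and the knock-out J2 points of Elac2 lie above all other J2 points of the same gene, and Supv3l1 is at 0 in 13 of 16 libraries.

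Of the synthesis genes, Tfam was high in adult J2 and nearly absent from wild-type P18 J2. Tfam (chromosome 10, 71225468 to 71238328) had 86.3 and 73.4 normalized counts in the adult J2 libraries, against 0.76, 0 and 0 in wild-type P18 J2. Knock-out P18 J2 had 4.11, 0 and 5.38. Both adult libraries thus stood above all 6 P18 libraries of the J2 fraction. The adult values stood for about 348 and 634 reads, and the highest wild-type P18 value for about 1.78; with the looser tolerance the 634 reads of adult replicate 2 become about 317. Tfam rose in adult J2 relative to wild-type P18 J2 by 6.06 on the log2(value + 1) scale (SE 1.27, unadjusted 95% interval 3.21 to 8.91, limma adjusted p = 0.0175). That scale understates changes from values near 0, and the size depends on the added 1. The call was lost when all genes above 0 were tested (adjusted p = 0.0953), and without wild-type J2 replicate 2 (5.93, adjusted p = 0.0631) or replicate 3 (5.93, adjusted p = 0.0689). Tfam entered this test only through the 2 adult libraries, the J2 libraries in which it reached 10, so it had to differ in order to be tested. Without either adult library it was not tested; with the genes of the full fit kept, an alternative chosen after seeing the data, it gave 5.95 (adjusted p = 0.0377) without adult replicate 1 and 6.18 (adjusted p = 0.0456) without adult replicate 2.

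Cell type markers also differed between adult and wild-type P18 in the same libraries. The 8 spermatid markers summed to 1725 to 1996 in adult J2, with 8 of 8 above 0, against 0 to 2.45 in wild-type P18 J2, where Prm1, Tnp2, Acrv1 and Akap4 were at 0 throughout. Spermatogonial markers summed to 11.4 to 14.6 in adult J2 (5 of 5 above 0) against 35.4 to 67.0 in wild-type P18 J2 (4 of 5, Gfra1 at 0). The 6 Sertoli markers summed to 55.4 to 120 in adult J2 (6 of 6) against 135 to 412 in wild-type P18 J2 (5 of 6, Amh at 0). Spermatid markers were thus higher, and spermatogonial and Sertoli markers lower, in the adult J2 libraries. The 6 macrophage and blood markers summed to 6.83 to 10.6 in adult J2 (5 of 6, Cd68 at 0) and 78.8 to 295 in wild-type P18 J2 (4 of 6, Adgre1 and Ptprc at 0), and the 3 peritubular myoid markers to 9.61 to 9.77 in adult J2 and 69.6 to 117 in wild-type P18 J2 (3 of 3 in both). The 3 markers of sperm and germ cell mitochondria (Gpx4, Smcp and Cyct) summed to 303 to 683 in adult J2 and 26.2 to 199 in wild-type P18 J2 (3 of 3 in both). Sums of spermatocyte, Leydig and endothelial markers overlapped between these groups. In flow-through, Sertoli sums (81.6 to 307 in adult, 148 to 167 in wild-type P18) and peritubular myoid sums overlapped. Spermatogonial sums were lower in adult flow-through too (5.37 to 7.71 against 12.1 to 115). The part of the marker differences in the Tfam result was not tested. In RNA from whole tissue, fewer cells of a type and less RNA per cell cannot be told apart.

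**Figure D3:**
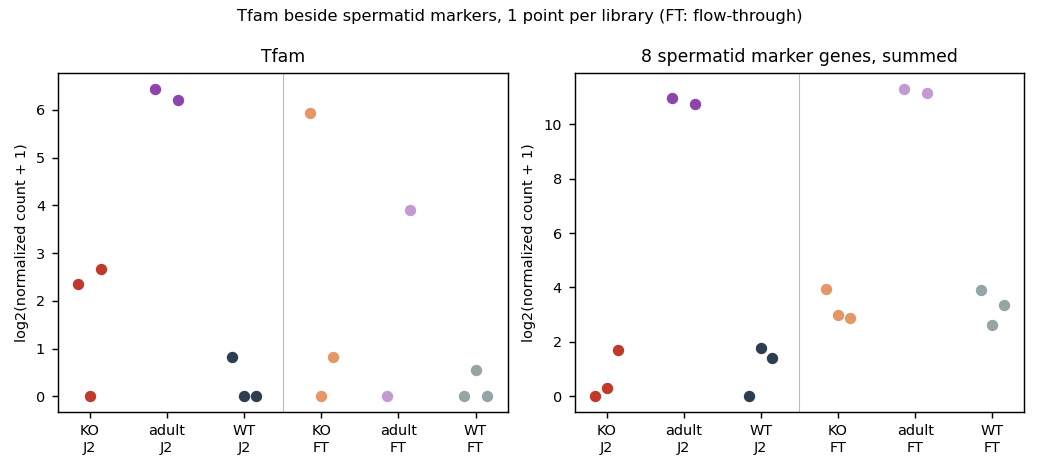
Tfam (left) and the sum of 8 spermatid marker genes (right) as log2(normalized count + 1), 1 point per library. Spermatid markers are high in all 4 adult libraries, at 1725 to 2534, whereas Tfam is high in both adult J2 libraries (73.4 and 86.3) and is at 0 and 14.1 in the adult flow-through libraries.

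In flow-through, Tfam did not separate the groups. It had 60.1, 0 and 0.77 normalized counts in knock-out, 0 and 14.1 in adult, and 0, 0.46 and 0 in wild-type P18 flow-through. The 60.1 of knock-out replicate 1 was a single high library and stood for about 7.42 reads. Within adults, Tfam was 4.38 higher in J2 than in flow-through on the log2 scale (SE 1.73), which did not pass (limma adjusted p = 0.671). That estimate ranged from 2.42 without adult flow-through replicate 1 to 6.33 without replicate 2.

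Polrmt, the polymerase itself (chromosome 10, 79736125 to 79746604), lay lower in J2 than in flow-through without overlap in adults and in wild type. It had 0.107, 24.8 and 0 normalized counts in knock-out J2, against 68.5, 15.5 and 24.2 in knock-out flow-through. Adult J2 had 3.85 and 2.77, against 24.9 and 9.55 in adult flow-through. Wild-type P18 J2 had 0.392, 0 and 2.60, against 6.71, 10.8 and 2.64 in wild-type P18 flow-through. In wild type the margin was narrow, 2.60 in J2 against 2.64 in flow-through, and in the knock-out the fractions overlapped through J2 replicate 2. No difference passed. The log2 change was -3.33 in the knock-out (SE 1.27, 95% interval -5.99 to -0.67, limma adjusted p = 0.325). It was -1.95 in adults (SE 1.56, limma adjusted p = 0.879) and -2.01 in wild type (SE 1.27, adjusted p = 0.498). All flow-through values of Polrmt stood for about 0.317 to 8.76 reads. The 2.64 of wild-type flow-through stood for about 0.317 reads, and the 2.60 of wild-type J2 for about 13.0.

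Within flow-through, the 3 knock-out libraries of Polrmt (15.5 to 68.5) also lay above the 3 wild-type ones (2.64 to 10.8). The log2 change was 2.15 (SE 0.89, 95% interval 0.16 to 4.14), and it did not pass (limma adjusted p = 0.795). Sertoli markers were likewise apart, summing to 240 to 293 in knock-out flow-through (5 of 6 above 0, Amh at 0) and 148 to 167 in wild-type flow-through (5 of 6, Amh at 0). Sums of all other marker lists overlapped between these groups. Sertoli sums overlapped in J2, at 218 to 385 in knock-out and 135 to 412 in wild type. The part of these markers was not tested. In J2, Polrmt reached 10 in 1 library and was not tested. Its adult J2 values lay just above all 3 wild-type P18 J2 values.

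Tfb2m, the promoter-opening factor (chromosome 1, 179528052 to 179546305), varied as much within groups as between them. It had 7.46, 1.73 and 0 normalized counts in knock-out J2, 0 and 7.85 in adult J2, and 1.37, 0 and 0.216 in wild-type P18 J2. In flow-through it had 0, 19.0 and 50.04 in knock-out, 0 and 2.06 in adult, and 0, 6.15 and 19.8 in wild type. All 6 groups held a library at 0, and all of them overlapped.

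Elac2, the tRNA 3' end nuclease (chromosome 11, 64979030 to 65002080), was highest in knock-out J2. It had 80.9, 21.6 and 45.8 normalized counts there, against 7.13, 0 and 2.82 in wild-type P18 J2. Adult J2 had 0 and 1.44. All 3 knock-out libraries therefore stood above all 5 other J2 libraries, with about 84.8 to 369 reads (44.4 to 369 with the looser tolerance) against at most 16.8. The log2 change against wild type was 3.81 (SE 1.31, 95% interval 0.89 to 6.74), and it did not pass over all genes (limma adjusted p = 0.720). Elac2 passed the filter on low values in J2 only through the knock-out libraries. Endothelial markers were also apart between these groups, summing to 25.0 to 61.2 in knock-out J2 and 4.97 to 20.5 in wild-type J2 (3 of 3 above 0 in both). Sums of all other marker lists overlapped between these groups. Endothelial sums overlapped in flow-through, at 9.04 to 36.1 in knock-out and 0 to 11.1 in wild type. The part of these markers was not tested.

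In flow-through, Elac2 did not separate the groups. Knock-out flow-through had 5.17, 30.8 and 1.46 normalized counts, adult flow-through 5.04 and 18.4, and wild-type flow-through 1.93, 35.4 and 5.60. Knock-out and wild type overlapped almost fully, each with 1 high library. The difference of differences (knock-out against wild type, in J2 against flow-through) was 3.998 on the log2 scale (SE 1.79, limma adjusted p = 0.993) and did not pass. In adults, Elac2 lay lower in J2 than in flow-through by a log2 change of -2.80 (SE 1.55, adjusted p = 0.802), and in the knock-out higher by 2.50 (SE 1.27, adjusted p = 0.468).

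Lrpprc, a leucine-rich PPR-motif protein that binds mitochondrial mRNAs (chromosome 17, 84705247 to 84790786), was among the most regularly detected of the 9, above 0 in 15 of 16 libraries. It had 6.70, 33.5 and 35.2 normalized counts in knock-out J2, 12.2 and 15.97 in adult J2, and 4.80, 5.36 and 31.2 in wild-type P18 J2. In flow-through it had 8.85, 4.64 and 8.90 in knock-out, 10.7 and 3.33 in adult, and 0, 4.51 and 16.8 in wild type. Its mean was 18.1 ± 13.1 over the 8 J2 libraries and 7.21 ± 5.21 over the 8 flow-through libraries (SD), and only in adults did the fractions not overlap. Its partner Slirp, a small RNA-binding protein (chromosome 12, 87443896 to 87449924), did not reach 10 in any library and was not tested. Slirp had 3.58, 0.762 and 9.12 normalized counts in knock-out J2, 0 and 7.83 in adult J2, and 2.35, 9.67 and 1.71 in wild-type P18 J2. In flow-through, Slirp had 0, 0 and 6.42 in knock-out, 0 and 3.45 in adult, and 1.84, 0.532 and 8.41 in wild type, so that all 6 groups overlapped. The annotated ends of Slirp and Snw1 share 15 bases, and those of Elac2 and Arhgap44 share 42, so reads there may be split between neighbours.

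Of the decay genes, Pnpt1 (chromosome 11, 29130129 to 29161827) was set by single libraries. It had 0.269, 0 and 19.0 normalized counts in knock-out J2, 0.802 and 8.74 in adult J2, and 101, 1.10 and 0 in wild-type P18 J2. The 101 of wild-type J2 replicate 1, about 237 reads, was the highest of its 16 values, while the other wild-type libraries were at or near 0. In flow-through, Pnpt1 had 0, 8.67 and 3.44 in knock-out, 31.8 and 0.618 in adult, and 5.27, 13.3 and 0 in wild type. Supv3l1, its helicase partner (chromosome 10, 62429221 to 62451515), was listed at 0 in 13 of 16 libraries. Its values above 0 were 2.24 in adult J2 replicate 2, 4.67 in adult flow-through replicate 2 and 7.80 in wild-type flow-through replicate 2, or about 2.18 to 19.3 reads (the 19.3 being about 9.66 with the looser tolerance). A long noncoding gene, 4930507D05Rik, overlaps it by 2194 bases, and how reads there were assigned is not given in the sources used here.

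Rexo2, the oligoribonuclease (chromosome 9, 48468512 to 48480611), was above 0 in 15 of 16 libraries. It had 4.94, 12.5 and 22.7 normalized counts in knock-out J2, 51.5 and 11.5 in adult J2, and 1.38, 20.3 and 38.4 in wild-type P18 J2. In flow-through it had 20.6, 12.2 and 5.29 in knock-out, 13.2 and 10.4 in adult, and 0, 11.7 and 49.0 in wild type. Every pair of neighbouring groups in the order of its means overlapped. Its mean was 20.4 ± 17.1 over 8 J2 libraries and 15.3 ± 14.9 over 8 flow-through libraries (SD).

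Setting J2 against flow-through asks which RNAs the antibody holds, relative to the median gene and not as amounts of RNA. 7 of the 9 genes could be tested, as Slirp and Supv3l1 fell short of a value of 10 in 2 libraries. In the knock-out, limma called 0 of 7 (1 at an unadjusted p under 0.05, Polrmt), where it called 0.357% of 9526 genes, and 0 of 7 had fractions that did not overlap, against 18% of all genes. In adults it called 0 of 7 (1 unadjusted, Tfam) where it called 0.315% of all genes. For 4 of the 7, the adult fractions were apart, Tfam and Lrpprc higher in J2 and Polrmt and Elac2 lower, where 35.7% of all genes were apart with 2 libraries against 2. In wild type it called 0 of 7 (0 unadjusted) where it called 0.903% of all genes, and 1 of 7, Polrmt, had fractions apart, against 15.4% of all genes. The median log2 change of the 7 was -0.25 in knock-out, 0.77 in adult and 0.09 in wild type, beside -0.15, 0.05 and -0.05 over all genes.

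The comparison of knock-out with wild type at P18 asks what changes in the absence of Dicer, a nuclease acting on double-stranded RNA. In J2, limma called 0 of the 5 testable members (1 unadjusted, Elac2) and 0% of 6882 genes, with 440 at an unadjusted p under 0.05. Knock-out and wild-type J2 did not overlap for 1 of 5, Elac2, against 9.9% of all genes. Elac2 passed the filter in J2 only through the knock-out libraries, so it had to differ in order to be tested. In flow-through it called 0 of 7 members (1 unadjusted, Polrmt) and 0% of 7141 genes, with 436 at an unadjusted p under 0.05, and 1 of 7 members, Polrmt, had groups apart, against 10.6% of all genes. Over members, the median log2 change was 1.01 in J2 and 0.83 in flow-through, beside 0.13 and 0.33 over all genes.

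The comparison of adult with wild-type P18 testis spans the appearance of spermatids. In J2, limma called 1 of 5 testable members, Tfam, where it called 5.46% of 6882 genes, 349 higher and 27 lower in adults. That member was also the 1 of 5 whose groups did not overlap, against 27.6% of all genes. In flow-through it called 0 of 7 members (0 unadjusted) where it called 3.23% of 7141 genes, and 0 of 7 had groups apart, against 25.1% of all genes. The members' median log2 change was 0.50 for J2 and 0.62 for flow-through, beside 0.33 and 0.28 over all genes. Neither interaction with fraction called any gene: the genotype interaction gave 0% of 9526 genes (455 unadjusted) and 0 of 7 members (1 unadjusted, Elac2), and the age interaction 0% (514 unadjusted) and 0 of 7 members (0 unadjusted). For Tfam, the age interaction was 4.29 on the log2 scale (SE 2.23, adjusted p = 0.947), with 2.33 without adult flow-through replicate 1 and 6.24 without replicate 2, so its adult difference was not shown to differ between J2 and flow-through.

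**Figure D4:**
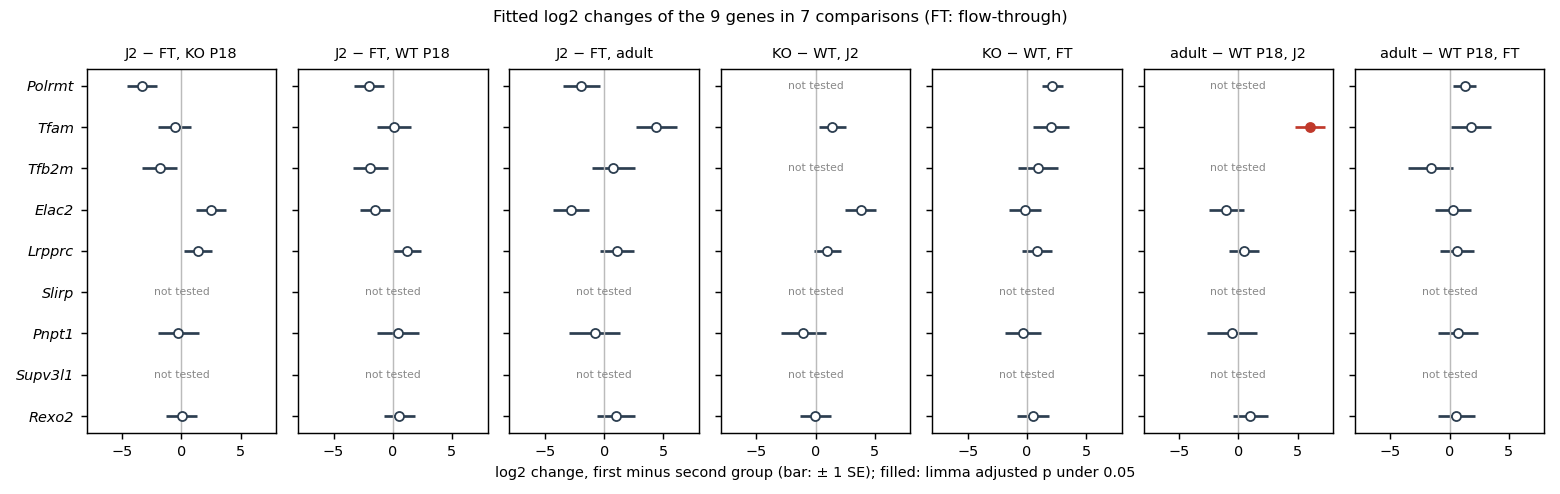
Fitted log2 changes (first group minus second, on log2(value + 1)) with 1 SE for the 9 genes in the 7 comparisons; a filled red point marks a limma adjusted p under 0.05. Tfam in adult against wild-type P18 J2, at 6.06, is the filled point, and genes below the filter are marked as not tested. Tfam passed the filter in that comparison only through the adult libraries.

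Other nuclear genes of mitochondrial RNA metabolism were counted in the same fits. Of 75 listed genes (19 of transcription and nucleoid, 43 of processing and modification, 13 of RNA granules and nucleases), 72 were in the table. For J2 against flow-through 43 were testable, and limma called 0 of them in the knock-out (6 unadjusted), 0 in adults (0 unadjusted) and 0 in wild type (4 unadjusted). Over all 9526 genes it called 0.357% (1094 genes unadjusted), 0.315% (633 unadjusted) and 0.903% (1325 unadjusted) in these 3 comparisons, so that 0 of 43 is near the background. For knock-out against wild type it called 0 of 27 in J2 (1 unadjusted) and 0 of 28 in flow-through (0 unadjusted), where it called 0% of all genes. For adult against wild-type P18 it called 0 of 27 in J2 (1 unadjusted) and 0 of 28 in flow-through (2 unadjusted), where it called 5.46% of all genes in J2 (968 of 6882 unadjusted) and 3.23% in flow-through (836 of 7141 unadjusted). The list's median log2 change in these 7 comparisons lay between -0.37 and 0.81, and that of all genes between -0.15 and 0.33. The 11 transcription factors of nuclear genes for mitochondria, among them Nrf1 and Gabpa, were all in the table, and 0 were called in any comparison by limma. Among those with at least 10 in every library of 1 group, the largest change was that of Creb1, with 0.873, 0 and 10.6 normalized counts in wild-type P18 J2, against 60.8, 36.0 and 140 in wild-type P18 flow-through, a log2 change of -4.62 (SE 1.15, adjusted p = 0.0631).

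From these 3 lists, without the transcription factors, the largest change was taken in each comparison. Only genes with at least 10 in every library of 1 compared group were ranked, so genes left unranked may have changed more. Nsun4, a methyltransferase of mitochondrial ribosomal RNA, had 28.2 and 60.7 normalized counts in adult flow-through, against 0, 2.91 and 0 in wild-type P18 flow-through, with a log2 change of 4.75 (SE 1.18, limma adjusted p = 0.0680). It reached 10 in flow-through only in the adult libraries, so it had to differ in order to be tested. Nsun4 had 0 and 83.5 in the adult J2 libraries. Clpx, the unfoldase of a mitochondrial protease, had 69.6 and 37.3 in adult J2, against 0, 0.451 and 11.7 in wild-type P18 J2, a log2 change of 4.30 (SE 1.76, adjusted p = 0.304). In wild-type P18, Mrpl12, a ribosomal protein that binds POLRMT, had 0.271, 0 and 6.12 in J2, against 24.3, 12.9 and 52.2 in flow-through, a log2 change of -3.67 (SE 1.22, adjusted p = 0.163). In the remaining comparisons the largest were Yrdc, a tRNA-modifying enzyme, at -3.39 in knock-out J2 against flow-through (SE 1.16, adjusted p = 0.252), and Mterf3, a transcription regulator, at 2.85 in adult J2 against flow-through (SE 1.69, adjusted p = 0.820). Yrdc reached 10 only in flow-through libraries, so it had to be lower in J2 to be ranked. Polg, the mitochondrial DNA polymerase, was at 2.65 in knock-out against wild-type flow-through (SE 1.20, adjusted p = 0.802), and Dhx30, an RNA helicase, at 1.70 in knock-out against wild-type J2 (SE 0.91, adjusted p = 0.842).

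The mitochondrially encoded RNAs on which these proteins act were measured in the same libraries. mt-Nd6, the mRNA of the light strand, had 130, 48.3 and 229 normalized counts in knock-out J2, 170 and 343 in adult J2, and 11.8, 21.3 and 37.7 in wild-type P18 J2. Both knock-out and adult J2 thus lay above wild-type J2 without overlap, but neither passed: the log2 change was 2.36 in knock-out J2 (SE 0.77, limma adjusted p = 0.703) and 3.45 in adult J2 (SE 0.87, adjusted p = 0.0502). These 2 comparisons share the wild-type libraries. Over all genes tested, groups did not overlap for 9.9% in the knock-out comparison and 27.6% in the adult comparison. In flow-through, mt-Nd6 had 27.3, 46.4 and 85.8 in knock-out, 48.0 and 23.0 in adult, and 31.7, 68.1 and 35.4 in wild type, which overlapped. The heavy-strand mRNAs together had 3328, 2405 and 3564 in knock-out J2, 2591 and 23066 in adult J2, and 1501, 2299 and 2898 in wild-type P18 J2. Both knock-out and adult J2 overlapped wild-type J2 in this sum. The high value was that of adult J2 replicate 2, the library with the most genes above 0. In flow-through the heavy-strand mRNAs had 4190 to 9040 in knock-out, 2641 and 8601 in adult, and 3256 to 6826 in wild type. The kit keeps the strand, but whether the quantification used it is not given in the sources used here, and without it reads of mt-Nd6 cannot be told apart from heavy-strand RNA over the same bases.

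Correlations between members over the 16 libraries were mixed in sign. The correlation of log2(value + 1) between members ran from -0.63 for Polrmt and Slirp to 0.71 for Rexo2 and Lrpprc. These values describe libraries that share 6 groups and 2 fractions of unlike depth. The genes most like Lrpprc, among 5981 above 0 in at least 12 libraries, were Dnajb11 (Pearson's r = 0.87), Plpp1 (0.79) and Cox5a (0.78). For Polrmt they were Gpr108 (0.86), Arih2 (0.85) and Ddb1 (0.84), and for Rexo2 Med15 (0.84), Med28 (0.83) and Pgrmc1 (0.82). For Elac2 they were Nfyc (0.76), Ece1 (0.76) and Stx12 (0.72), for Pnpt1 Tbc1d5 (0.79), Snx25 (0.78) and Tecpr2 (0.77), and for Slirp Dhx16 (0.78), Gm26809 (0.73) and Arid4b (0.73). All these genes were picked as the highest among 5981 over 16 libraries, without a background, so the correlations are a description only. Tfam, Tfb2m and Supv3l1 were above 0 in fewer than 12 libraries and were not matched.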

How the data were processed

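RNA of 16 mouse testis libraries was measured in 6 groups of genotype or age by fraction. The authors deposited 1 table of values per gene and library, a signal on a normalized count scale. Per the submitters' processing notes, FastQC, Trimmomatic, Salmon, DESeq2 and the build mm10 were used; versions, roles and settings are not given in the sources used here. Per the labels' protocols, libraries were strand-specific (NuGEN Ovation SoLo). Of 35920 Ensembl identifiers, 35446 matched a symbol, all 16 columns matched a sample (0 unmatched), and no column duplicated another. Coordinates are those of GRCm38.p6.

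Log2(value + 1) was tested with limma 3.58.1 in R 4.3.3 (empirical Bayes with mean trend, two-sided, Benjamini-Hochberg adjustment over all genes tested, threshold 0.05). A gene was tested if it reached 10 in 2 or more libraries of a fit. Contrasts between fractions and the interactions used all 16 libraries; the other comparisons used the 8 of a fraction. Group summaries are mean ± SD and intervals are 95% and unadjusted. The worth of 1 read was approximated from values at multiples (up to 20, tolerance 1e-06); whole reads were not recovered, so no count test was run. The fits were tested on simulated data, with changes placed only in genes of higher mean values than the members. Spread there was capped at its median over genes, so that test does not cover genes as low as these. A second header line gives codes whose digits 1 J2 and 1 flow-through library share; what they mean is not stated, and they were not treated as pairs. The members and gene lists were chosen with earlier results of these data known. All 9 members are named with every value; of the 3 lists of mitochondrial RNA metabolism, those called or, with none called, the largest change with at least 10 in every library of 1 group; likeness is the 3 highest correlations. Alternatives were a pseudocount of 10, no filter, a filter at 50, quantile normalization, a common total without mitochondrial genes and the 10 highest features, the compared groups alone, a replicate block, a read tolerance of 1e-04, and each replicate left out. In adult against wild-type P18 J2, adult replicates were also left out with the genes of the full fit kept, chosen after seeing the data.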

Additional observations from a re-analysis of the deposited data

How the results depend on the processing

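One member passed the threshold in adult against wild-type P18 J2 (Tfam), and with no filter the count was 0. It was 1 without wild-type J2 replicate 1, and 0 without wild-type J2 replicate 2 or replicate 3. Without either adult J2 library, Tfam was tested only where the genes of the full fit were kept. Leaving out a library gave 0 members in all other comparisons, as did the other alternatives. Of 712 member changes under all alternatives, 97 had the opposite sign, and 0 of those were called under either setting. In all, 8 were called, all of them Tfam in adult against wild-type P18 J2. These include the fits that kept the genes of the full fit, which leave 1 adult J2 library and were chosen after seeing the data. Its log2 change ranged from 3.13 with a pseudocount of 10 to 6.33 without wild-type replicate 1 (adjusted p 0.00148 to 0.0953).

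All-gene counts moved more than the members' did. For J2 against flow-through they were 34 in the knock-out (20 to 67 under alternatives), 30 in adults (11 to 251, the highest with no filter) and 86 in wild type (24 to 153). Adult against wild-type P18 gave 376 in J2 (0 with no filter, 18 to 357 with a library left out) and 231 in flow-through (0 to 295), knock-out against wild type 0 (0 to 2) in J2 and 0 (0 to 0) in flow-through, and the age interaction 0 (0 to 110). In adult against wild-type P18 J2 the median log2 change of all genes was 0.33 as deposited, -0.14 after quantile normalization and 0.23 after the common total, with Tfam at 6.06, 5.36 and 5.95. With the replicate block, fitted on the shared codes, J2 against flow-through gave 20 genes in the knock-out, 15 in adults and 24 in wild type, and 0 members. Deviations of libraries with the same code correlated by -0.026 to 0.031. With 2 adult libraries per fraction, and flow-through values that stand for few reads, these correlations cannot exclude pairing. The codes were not treated as pairs because their meaning is not stated. With the looser read tolerance, the worth of 1 read in J2 was 0.200 to 1.03. Few reads behind the 9 genes in flow-through and groups of 2 or 3 libraries limit what could be detected. The cause of the lost calls was not tested.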
